A study of Mus musculus with 18 samples.

Results

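Gene expression on a stiff matrix was compared with that on a soft matrix within the condition labelled TW, in 3 Stiff-TW libraries and 3 Soft-TW libraries of the 18 in the series. The 6 libraries were chosen by the sample group in their labels, and every gene of the table entered. The other groups, of 3 libraries each, carried the addition labelled mito on each matrix (Stiff+mito, Soft+mito) or the matrix alone (Stiff, Soft), and they served here only to ask whether the matrix difference itself was other under TW. All libraries were labelled as RAW264.7, a mouse macrophage-like line transformed by a leukaemia virus, and no genotype, transgene or drug was named. The labels leave TW and mito unexplained, and no source used here gives the stiffness of the matrices, the time in culture or any partner cell.

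Cells read the stiffness of what they sit on through integrins and collagen receptors such as the discoidin domain receptors, through focal adhesions and actin tension, and through regulators of transcription such as Srf, Yap and Taz. In many adherent cells a stiffer support goes with spreading, matrix synthesis and passage through the cell cycle. Genes of mitosis are switched on together late in the cycle, genes of cholesterol synthesis are switched on together by Srebp2 when sterols run low, and amino acid synthesis genes are switched on by Atf4 in the integrated stress response.

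The total of estimated counts ran from 16331498 to 16509621 over the 6 libraries, and in each of them 11859 to 11915 genes reached 10 counts. Levels are in TPM, the share of transcripts after division by length. A count of 0 left room for 3 counts by counting error alone, or 0.106 to 0.108 TPM in the median gene. Of 18397 genes in the table, 12245 were tested. A gene is said to have risen or fallen where edgeR's quasi-likelihood test gave an adjusted p under 0.05. Log2 fold changes are Stiff-TW minus Soft-TW unless said otherwise, and ± marks an approximate standard error for log2 fold changes and a standard deviation for TPM, with n = 3 libraries per group. Nothing in the sources says whether the 3 libraries of a group were separate cultures, so the p-values measure only the spread between libraries, which may be technical. That spread was small: counts of replicate libraries differed by a chi-square per degree of freedom of 1.21 to 1.47, where counting error alone gives about 1, so small changes passed the test.

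Defining markers of the labelled cell type were absent or near 0, while other myeloid markers were present. Adgre1, which encodes the macrophage antigen F4/80, had 1, 3 and 1 counts in Stiff-TW and 1, 4 and 2 in Soft-TW, and Ptprc, which encodes the leukocyte antigen CD45, stayed at or under 0.27 TPM in all 6 libraries. The endotoxin co-receptor gene Cd14 averaged 27.1 ± 1.58 TPM in Stiff-TW and 30.2 ± 0.589 TPM in Soft-TW, and Cd68, a lysosomal glycoprotein, 11.8 ± 1.6 and 14.4 ± 0.818 TPM. The calcium-binding protein gene S100a4 averaged 9400 ± 180 TPM in Stiff-TW and 9670 ± 296 TPM in Soft-TW, Vim, which encodes the intermediate filament protein vimentin, 4220 ± 17.1 and 2970 ± 41.8 TPM, and the keratin gene Krt8 439 ± 8.82 and 528 ± 4.96 TPM. Of 25 macrophage and myeloid markers, 3 reached a mean of 10 TPM in each TW group (Cd14, Lyz2 and Cd68), and the summed level of all was 76.6, 76.5 and 77.4 TPM in the Stiff-TW libraries against 118, 120 and 123 TPM in the Soft-TW libraries. Of the 15 markers tested, 10 fell in Stiff-TW and 0 rose, beside 26.7% lower and 27.6% higher among all genes tested. Some of them passed the count filter only through Soft-TW, such as Coro1a, with 17, 11 and 15 counts there and 5, 7 and 10 in Stiff-TW. Such a gene could hardly be called higher in Stiff-TW, so the counts of markers are a description and not a test. The sums were 60.8 ± 3.04 TPM in Stiff+mito and 74.2 ± 3.0 TPM in Soft+mito, and 50.6 ± 3.6 TPM in Stiff and 55.4 ± 0.326 TPM in Soft. In bulk RNA, fewer cells of a type and less RNA per cell cannot be told apart, and the part of these transcripts in the results below was not tested.

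In Stiff-TW, 3378 genes were higher (27.6% of those tested) and 3272 were lower (26.7%) than in Soft-TW. The balance of directions depends on the scaling: the higher genes were 50.8% of those called, but 42.9% with library totals. With a fold of at least 1.5 as well, 542 were higher (4.43%) and 230 were lower (1.88%), and with a fold of at least 2, 121 (0.988%) and 88 (0.719%). The 3 Stiff-TW libraries lay wholly above or wholly below the 3 Soft-TW libraries in 7338 genes, 59.9% of those tested. Over all genes the median log2 fold change was 0.0021. The counts of 1.5-fold genes depend on how low genes are treated: with a mean of at least 5 CPM (counts scaled to library size), 408 genes were called in both directions together, beside 772.

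Among genes with a mean of at least 5 CPM and no overlap between the groups, the largest rises were those of the AP-1 subunit genes Fosb and Fos. These are transcription factors that cells make within minutes of a stimulus. Fosb (gene 14282, chr7:19302696-19310118) had 54.77, 54.19 and 53.26 TPM in Stiff-TW, against 8.85, 8.05 and 8.26 TPM in Soft-TW, a log2 fold change of 2.72 ± 0.051 with an adjusted p of 3.24e-47 by edgeR. Fos (gene 14281, chr12:85473890-85477274) had 95.76, 100.69 and 98.82 TPM in Stiff-TW, against 19.29, 18.75 and 19.5 TPM in Soft-TW, a log2 fold change of 2.38 ± 0.045. In both genes the gap between the groups was wider than the range within either group. The log2 fold change of Stiff over Soft was 0.48 for Fosb, and the difference of 2.24 ± 0.12 between the matrix contrasts was itself called. For Fos it was 2.54, and the difference of -0.16 was not called (adjusted p = 0.361 by edgeR). Under mito each gene rose by 0.92. Fosb stood at 158 ± 4.73 TPM in Stiff+mito and 82.8 ± 6.9 TPM in Soft+mito, and Fos at 243 ± 3.32 and 128 ± 4.68 TPM. The differences of 1.79 ± 0.062 for Fosb and 1.47 ± 0.055 for Fos from the mito contrast were called.

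Aqp1, a water channel (gene 11826, chr6:55336299-55348555), had 174.98, 177.82 and 174.41 TPM in Stiff-TW, against 76.52, 82.4 and 83.31 TPM in Soft-TW. Its rise of 1.14 ± 0.028 stood beside 0.28 for Stiff over Soft and 0.73 under mito, both differences being called. Vcam1, an adhesion molecule that binds leukocyte integrins, had 17.9, 18.1 and 18.19 TPM in Stiff-TW, against 6.66, 7.82 and 7.33 TPM in Soft-TW (log2 1.33 ± 0.065). That the groups did not overlap in either gene follows from the rule that chose them. Fas, a death receptor and p53 target (log2 1.34 ± 0.14), Enpp2, which makes the lipid mediator lysophosphatidic acid (1.19 ± 0.062), Dkk3, of the Dickkopf family of secreted proteins (1.28 ± 0.11), and Crabp1, a retinoic acid carrier (1.19 ± 0.11), also rose at least 2-fold. So did Pif1, a DNA helicase (1.20 ± 0.089), Sapcd2, which acts in spindle orientation (1.18 ± 0.095), and the stretch-gated ion channel gene Piezo2 at a low level (2.4, 2.28 and 1.92 TPM in Stiff-TW, against 1.01, 0.94 and 1.05 TPM in Soft-TW). Others among the 16 largest rises were Tmem266, Unc13c, Glt8d2 and the sodium-proton exchanger gene Slc9a9, at log2 fold changes of 1.13 to 1.46.

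Under the same rule, the largest fall was that of Gsta1, a glutathione transferase of detoxification (gene 14857, chr9:78230669-78242683), at 2.85, 3.72 and 4.5 TPM in Stiff-TW, against 32.12, 26.27 and 24.71 TPM in Soft-TW (log2 -2.87 ± 0.16, adjusted p 5.4e-27 by edgeR). Tfrc, the transferrin receptor through which cells take up iron (gene 22042, chr16:32608896-32632794), had 20.16, 20.25 and 18.96 TPM in Stiff-TW, against 49.34, 49.21 and 50.54 TPM in Soft-TW (log2 -1.32 ± 0.034). Both genes also fell in Stiff relative to Soft (log2 -1.20 and -0.86). Under mito they fell by 2.57 and 1.40, and the difference from mito was called for neither (adjusted p = 0.335 and 0.211 by edgeR). Zfand2a, a heat-induced zinc finger gene (-1.22 ± 0.036), Hspa1b, a stress-inducible Hsp70 gene (-1.20 ± 0.038), Plaur, the urokinase receptor (-0.97 ± 0.042), and Serpinb9b, of the serpin family (-1.01 ± 0.033), fell among the 16 largest as well. Prl2c3, of the proliferin family of growth-associated hormones, averaged 84.0 ± 3.09 TPM in Stiff-TW and 210 ± 1.6 TPM in Soft-TW, but close paralogs make its counts less certain. H2-DMa, which loads peptides onto MHC class II (-1.42 ± 0.095), Havcr2, which encodes the immune receptor Tim-3 (-1.18 ± 0.09), and the lysozyme gene Lyz2 (-1.14 ± 0.11) were lower too. H2-DMa and Havcr2 also fell under mito, by 1.20 and 1.04, and in Stiff relative to Soft, by 0.90 and 1.12. The sums of macrophage markers in Stiff and Soft were 50.6 ± 3.6 and 55.4 ± 0.326 TPM. Lyz2 had 11.99, 12.1 and 16.08 TPM in Stiff-TW, against 30.79, 28.98 and 30.84 TPM in Soft-TW. It was not lower in Stiff (7.39 ± 1.39 TPM) than in Soft (5.59 ± 0.878 TPM). Slc6a4, Cldn34c2, Prdm1, Tbc1d30, Tmem238 and Clcn5 completed the 16, at -0.92 to -1.33.

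**Figure D1:**
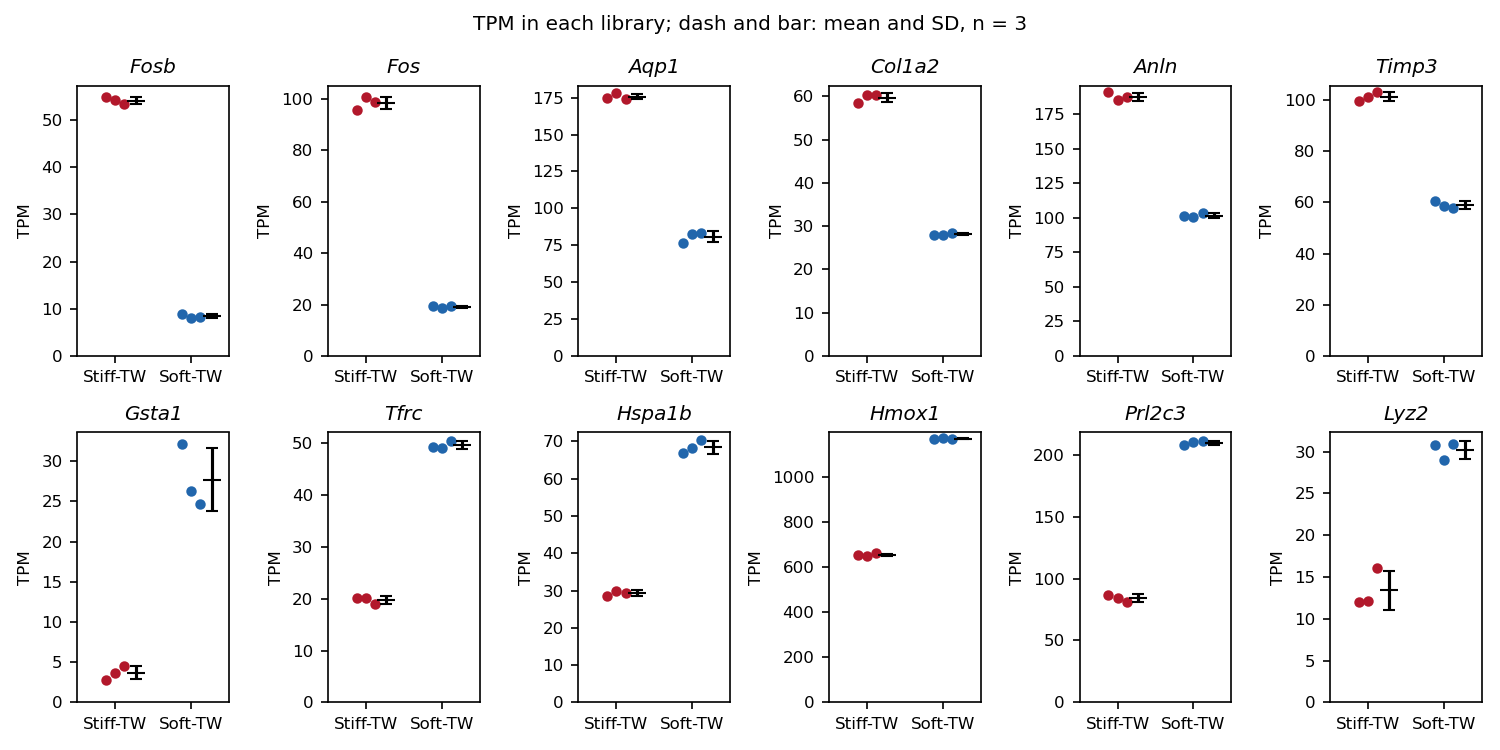
Level in TPM (vertical axes, from 0) in each of the 3 Stiff-TW libraries (red) and the 3 Soft-TW libraries (blue), with the mean and SD of each group beside the points, for 6 genes higher in Stiff-TW (upper row) and 6 lower in Stiff-TW (lower row). The groups do not overlap in any panel, which was a condition for the genes named as the largest rises and falls. The red points of Fosb lie between 53.26 and 54.77 TPM and its blue points between 8.05 and 8.85 TPM.

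Genes of mitosis rose together. All 50 members tested of a list of G2 and M phase genes rose in Stiff-TW, 44 of them at least 1.5-fold, with log2 fold changes of 0.40 to 1.02 and a median of 0.77. Anln, an actin-binding scaffold of the cleavage furrow (gene 68743, chr9:22331214-22389211), had 190.93, 185.12 and 187.5 TPM in Stiff-TW, against 101.11, 100.26 and 103.62 TPM in Soft-TW, a log2 fold change of 0.87 ± 0.022. Prc1, which bundles the microtubules of the spindle midzone, rose by 0.87 ± 0.026, Top2a, the topoisomerase that untangles chromosomes, by 0.80 ± 0.022, and the proliferation antigen gene Mki67 by 0.73 ± 0.023. The same 50 genes were higher on the stiff matrix in the other conditions too, where the background was 32.7% of tested genes for Stiff+mito over Soft+mito and 29.1% for Stiff over Soft. Their medians there were 0.41 and 0.44. The matrix difference was larger under TW than with the matrix alone for 44 of the 50 and smaller for 0, beside 16.4% and 19.7% of all genes tested, and larger than under mito for 46 and smaller for 0, beside 14.8% and 16.5%. The promoters of the 4 mitotic genes of smallest adjusted p are printed because the cell cycle homology element TTTGAA, to which the repressor complexes of the late cell cycle bind, recurs in them. They run from 250 bases before to 50 bases after the start in RefSeq's GRCm38.p6, 5′ to 3′ on the gene's strand, and capitals mark TTTGAA on either strand.
Anln, chr9:22389157-22389456, minus strand: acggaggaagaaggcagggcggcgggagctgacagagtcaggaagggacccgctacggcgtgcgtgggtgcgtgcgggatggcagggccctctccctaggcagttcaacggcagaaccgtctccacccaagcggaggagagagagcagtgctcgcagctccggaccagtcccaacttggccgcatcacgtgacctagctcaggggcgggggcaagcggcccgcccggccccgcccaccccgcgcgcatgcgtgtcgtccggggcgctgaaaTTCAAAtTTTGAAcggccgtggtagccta
Top2a, chr11:99024140-99024439, minus strand: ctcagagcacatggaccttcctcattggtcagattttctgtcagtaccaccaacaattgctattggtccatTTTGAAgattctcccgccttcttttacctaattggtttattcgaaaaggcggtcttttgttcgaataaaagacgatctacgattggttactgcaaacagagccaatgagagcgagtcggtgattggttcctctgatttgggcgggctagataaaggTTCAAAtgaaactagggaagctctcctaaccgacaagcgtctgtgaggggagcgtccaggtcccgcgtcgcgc
Prc1, chr7:80294201-80294500, plus strand: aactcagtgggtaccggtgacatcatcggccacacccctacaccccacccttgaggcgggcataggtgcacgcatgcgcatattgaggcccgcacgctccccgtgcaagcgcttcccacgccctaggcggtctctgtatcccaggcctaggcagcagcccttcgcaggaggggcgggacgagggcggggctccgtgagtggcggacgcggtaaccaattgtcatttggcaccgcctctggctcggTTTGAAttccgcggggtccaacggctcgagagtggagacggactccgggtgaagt
Mki67, chr7:135716330-135716629, minus strand: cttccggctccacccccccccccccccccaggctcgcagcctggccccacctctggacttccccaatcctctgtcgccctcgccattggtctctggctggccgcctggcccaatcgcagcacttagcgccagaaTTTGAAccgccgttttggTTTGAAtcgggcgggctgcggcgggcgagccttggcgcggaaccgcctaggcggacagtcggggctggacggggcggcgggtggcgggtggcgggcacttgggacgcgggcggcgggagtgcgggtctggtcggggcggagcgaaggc
TTTGAA was in the promoter window of 30 of the 41 listed genes with an entry (73.2%) and in 12.4% of the windows of the 9751 tested genes with one. A match of letters is a description and shows no binding.

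DNA replication genes moved less uniformly than those of mitosis. Of 41 members tested, 25 rose and 8 fell, with a median of 0.22, beside medians of -0.02 for Stiff+mito over Soft+mito and 0.07 for Stiff over Soft. Lig1, the ligase that joins lagging strand fragments, rose by 0.53 ± 0.041, Uhrf1, which maintains DNA methylation at forks, by 0.49 ± 0.04, and Pold1, a replicative polymerase subunit, by 0.57 ± 0.052. Pcna, the sliding clamp of the polymerases, fell by 0.45 ± 0.026, to 340.91, 356.62 and 351.15 TPM in Stiff-TW against 480.63, 485.01 and 491.69 TPM in Soft-TW. Among p53 targets, 10 of 22 rose and 7 fell, Cdkn1a, the cyclin-dependent kinase inhibitor p21, being lower by 0.31 ± 0.023, and the sign of that list's median (0.02) turned under another scaling. Of 18 clustered histone genes, 1 rose and 4 fell, the falls being near the 26.7% of all genes tested.

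Most lipid synthesis genes were higher on the stiff matrix under TW and lower on it elsewhere. Of 23 genes of cholesterol synthesis and uptake, 18 rose and 0 fell in Stiff-TW (median 0.23), whereas 0 rose and 22 fell in Stiff+mito relative to Soft+mito (median -0.49; background 30.8% lower) and 0 rose and 21 fell in Stiff relative to Soft (median -0.29; background 24.7% lower). The difference between the matrix contrasts was positive and called for all 23 against the matrix alone and for 22 against mito. Fdps, which makes farnesyl diphosphate, had 464.08, 460.46 and 456.2 TPM in Stiff-TW, against 370.6, 367.46 and 359.08 TPM in Soft-TW (log2 0.37 ± 0.024). Its levels were 272 ± 2.58 TPM in Stiff+mito and 404 ± 5.73 TPM in Soft+mito, and 294 ± 3.29 TPM in Stiff and 396 ± 12.0 TPM in Soft. Thus the stiff group was the higher one in TW and the lower one in both other conditions. Insig1, the sterol-sensing brake on Srebp processing, behaved likewise (0.43 ± 0.024 under TW, -0.18 under mito and -0.17 with the matrix alone). Fdft1, which commits farnesyl units to sterols, rose by 0.39 ± 0.025 under TW, beside -0.0035 with the matrix alone. Fatty acid synthesis genes followed: 11 of 13 rose and 2 fell (median 0.28, beside -0.12 under mito and -0.14 with the matrix alone), among them the elongase gene Elovl6 (0.54 ± 0.032), the desaturase genes Scd1 (0.31 ± 0.019) and Fads1 (0.38 ± 0.027), and the acetyl-CoA synthetase gene Acss2 (0.52 ± 0.043). Fads1 and Acss2 also rose in Stiff relative to Soft, by 0.19 and 0.18. No member of the cholesterol list changed by as much as 1.5-fold under TW, nor did any of the fatty acid list. The motif TCACNCCA, a form of the sterol regulatory element, was in 3 of 16 promoter windows of the cholesterol list (18.8%) and in 3.6% of all.

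**Figure D2:**
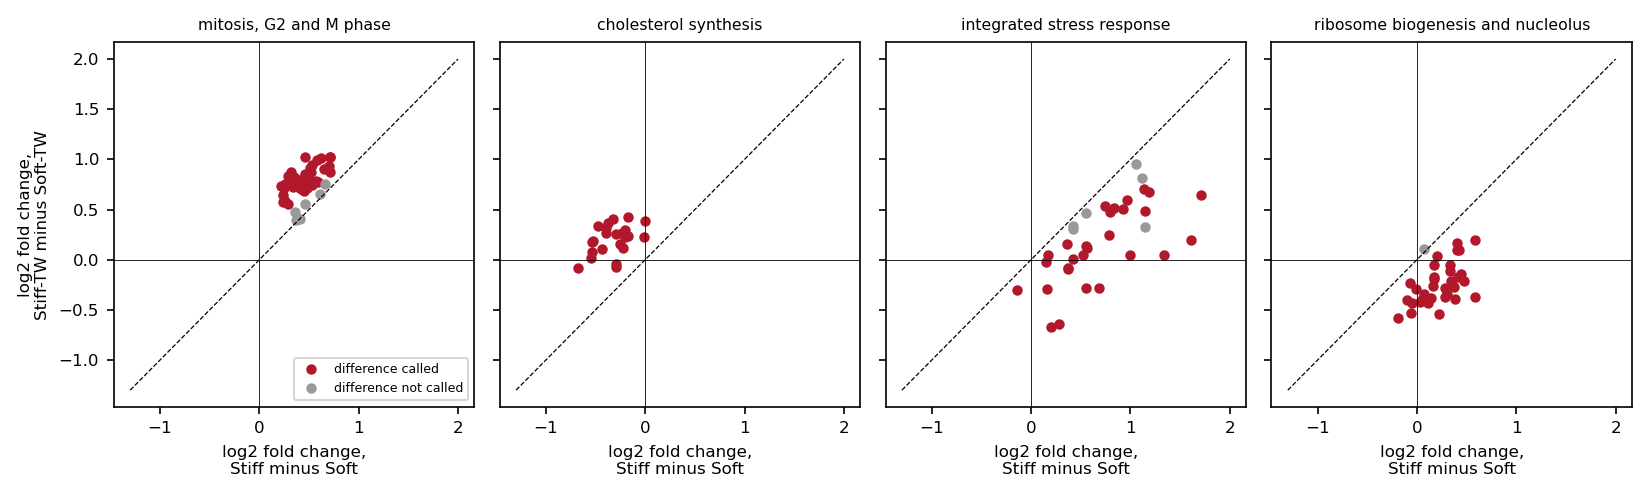
Log2 fold change of each tested member of 4 gene lists for Stiff-TW minus Soft-TW (vertical axis) against Stiff minus Soft (horizontal axis), the dashed line marking equal change. Points in red have a called difference between the 2 contrasts: 44 of 50 mitotic genes and all 23 cholesterol genes lie above the line in red, and 28 of 34 integrated stress response genes and 34 of 35 ribosome biogenesis genes below it.

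Amino acid synthesis genes rose by less on the stiff matrix under TW than elsewhere. Of 34 genes of the integrated stress response, 19 rose and 7 fell in Stiff-TW (median 0.18), against 28 and 3 in Stiff+mito (median 0.61) and 32 and 1 in Stiff (median 0.62). The matrix difference was smaller under TW than with the matrix alone for 28 and larger for 0. Pck2, the mitochondrial phosphoenolpyruvate carboxykinase, was among those that rose, with 66.42, 68.53 and 68.58 TPM in Stiff-TW, against 34.33, 36.47 and 35.6 TPM in Soft-TW (log2 0.95 ± 0.034, beside 1.51 under mito, a called difference, and 1.06 with the matrix alone, where the difference was not called). The serine synthesis genes Phgdh and Psat1 rose by 0.48 ± 0.024 and 0.47 ± 0.024, beside 0.79 and 0.55 with the matrix alone. That difference was called for Phgdh but not for Psat1 (adjusted p = 0.0662 by edgeR). Slc7a11, the cystine importer, was at 38.62, 37.7 and 36.04 TPM in Stiff-TW, against 59.49, 60.47 and 59.54 TPM in Soft-TW, so it fell by 0.67 ± 0.024. It fell by 0.24 under mito as well, while it rose by 0.20 in Stiff relative to Soft. Of 20 cytosolic aminoacyl-tRNA synthetase genes, 15 rose and 3 fell (median 0.14, beside 0.42 in each of the other conditions). Lars and Nars, for leucine and asparagine, rose by 0.35 ± 0.025 and 0.24 ± 0.021 under TW and by 0.98 and 0.81 with the matrix alone, whereas the rise of Vars, for valine, at 0.45 ± 0.026, was not called different (0.43 with the matrix alone). The Atf4-type motif TGATGNAA was in 10 of 28 promoter windows of the integrated stress response list (35.7%) and in 2.32% of all. In the unfolded protein response list, 12 of 23 rose and 4 fell, among them the chaperone genes of the endoplasmic reticulum Hsp90b1 (0.34 ± 0.018) and Hspa5 (0.30 ± 0.018).

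Genes that build ribosomes and those that encode ribosomal proteins went opposite ways. Of 35 ribosome biogenesis genes, 27 fell and 4 rose in Stiff-TW (median -0.26), whereas 26 rose and 2 fell in Stiff relative to Soft (median 0.22). The difference was negative and called for 34 of the 35. Nop56, a core protein of box C/D small nucleolar particles, had 109.87, 106.99 and 107.41 TPM in Stiff-TW, against 151.75, 143.89 and 148.97 TPM in Soft-TW (log2 -0.39 ± 0.028), but 319 ± 6.31 TPM in Stiff and 258 ± 1.91 TPM in Soft. Nop2, an rRNA methyltransferase (-0.58 ± 0.034), Utp4, of the small subunit processome (-0.53 ± 0.038), and Mybbp1a, a nucleolar regulator (-0.34 ± 0.024), fell too. With the matrix alone Nop2 also fell (-0.19), Utp4 was not called (-0.063, adjusted p = 0.0868 by edgeR) and Mybbp1a rose (0.30). Under mito, 16 genes of the list rose and 13 fell (median 0.03), Nop2 and Utp4 being lower by 0.43 and 0.37. Of 76 cytosolic ribosomal protein genes, 58 rose and 0 fell in Stiff-TW, by a median of 0.13. Rpl3, a protein of the large subunit, rose by 0.50 ± 0.019, and by 0.56 in Stiff relative to Soft.

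Mitochondrial ribosomal protein, import and chaperone genes were more often lower than higher, by small steps, and in none of the lists that follow did a member rise or fall at least 1.5-fold. Of 77 mitochondrial ribosomal protein genes, 35 fell and 4 rose (median -0.11), of 26 protein import genes 15 fell and 1 rose (-0.14), of 15 mitochondrial chaperones and proteases 7 fell and 1 rose (-0.12), and of 78 nuclear-encoded respiratory chain subunits 25 fell and 5 rose (-0.07), a share of falls near the background of 26.7% (39 fell with limma). Under mito, where 30.8% of all genes fell and 32.7% rose, 44 mitochondrial ribosomal protein genes fell and 9 rose (median -0.15). There 50 respiratory chain genes fell and 3 rose (-0.15), 13 import genes fell and 3 rose (-0.07), and 4 chaperones and proteases fell and 6 rose (0.05). Hspd1, the matrix chaperonin Hsp60, had 290.86, 292.88 and 292.66 TPM in Stiff-TW, against 371.26, 362.2 and 359.12 TPM in Soft-TW (log2 -0.30 ± 0.021). It was higher in Stiff than in Soft, by 0.29, and in Stiff+mito than in Soft+mito, by 0.052. Cycs, which encodes cytochrome c (-0.44 ± 0.029, and -0.24 under mito), Tomm70a, an outer membrane import receptor (-0.26 ± 0.026), and Timm8a1, an intermembrane space chaperone (-0.37 ± 0.049), fell under TW. These 3 genes were higher in Stiff than in Soft, by 0.13, 0.26 and 0.45. Of 20 genes of the tricarboxylic acid cycle, 6 rose and 9 fell, of 19 of fatty acid oxidation 6 rose and 2 fell, of 39 Slc25 carriers 11 rose and 9 fell, and of 25 of mitochondrial dynamics and DNA upkeep 1 rose and 9 fell. Among all genes tested 27.6% rose and 26.7% fell. Both shares of the Slc25 carriers, and the rises of the cycle and of fatty acid oxidation, lay near these. Of 12 genes of mitochondrial transport and transfer between cells, 3 rose and 5 fell (median 0.02, whose sign turned under another scaling): Gja1, the gap junction protein connexin 43, rose by 0.41 ± 0.024, Tnfaip2, linked to tunnelling nanotubes, by 0.22 ± 0.03, and Myo10, a filopodial myosin, fell by 0.21 ± 0.026. The table held 0 genes of the mitochondrial chromosome.

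**Figure D3:**
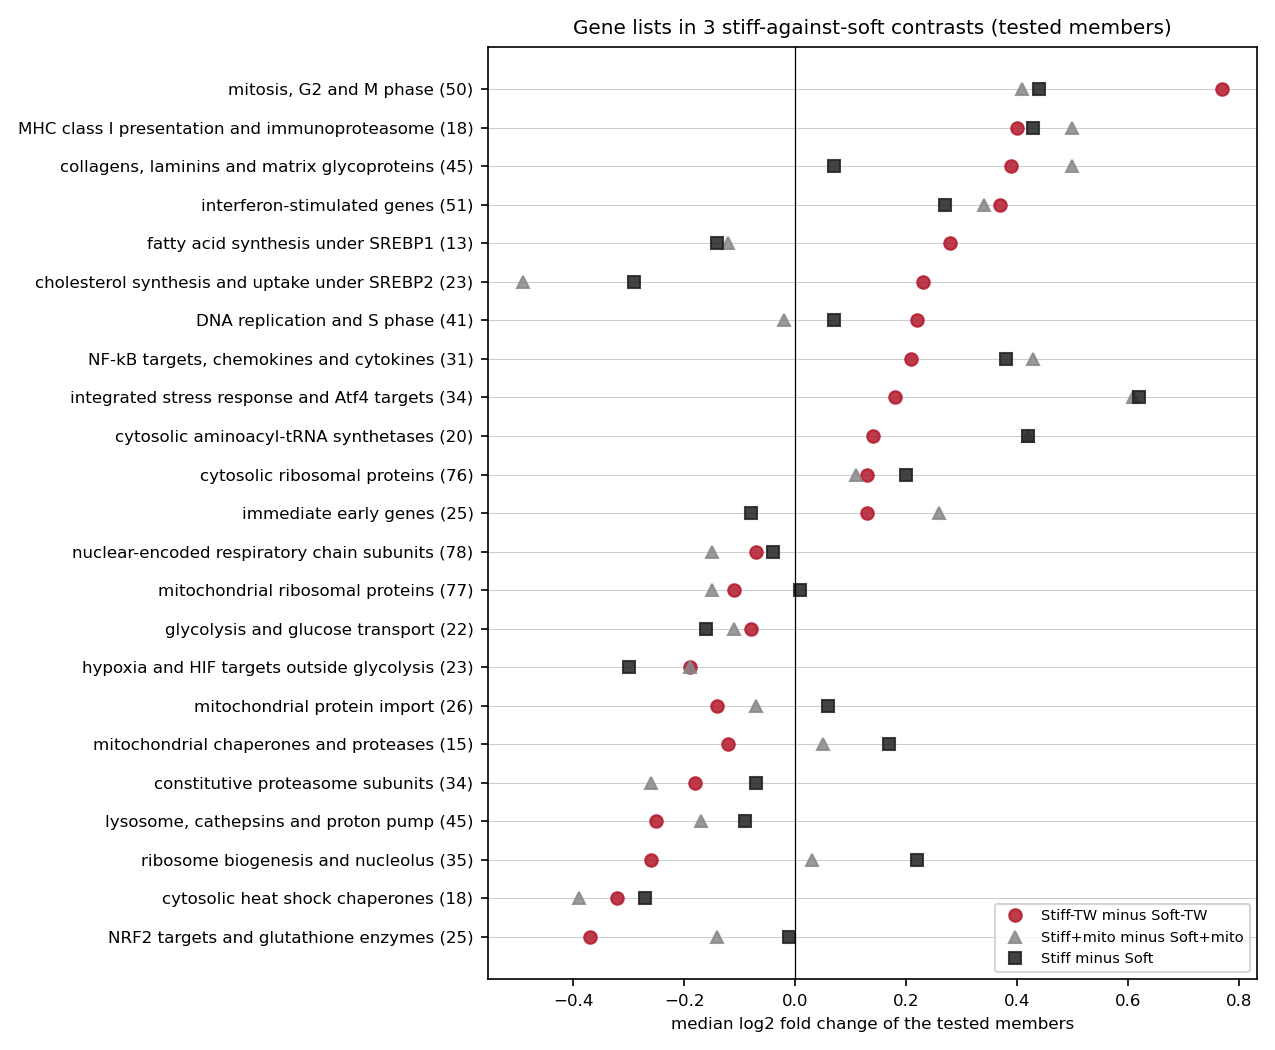
Median log2 fold change of the tested members (number in parentheses) of 23 gene lists, for Stiff-TW minus Soft-TW (red circles), Stiff+mito minus Soft+mito (grey triangles) and Stiff minus Soft (black squares). The circle lies right of the other marks for mitosis (0.77), and right of zero for cholesterol synthesis (0.23) where the other marks lie left of it (-0.49 and -0.29).

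Genes of oxidative defence and protein quality control were lower in Stiff-TW. Of 25 NRF2 targets and glutathione enzymes, 18 fell and 2 rose (median -0.37, beside -0.14 under mito and -0.01 with the matrix alone), and the difference from the matrix alone was negative and called for 20. Hmox1, the heme oxygenase (gene 15368, chr8:75093618-75100593), had 654.7, 650.27 and 661.01 TPM in Stiff-TW, against 1167.7, 1171.81 and 1169.42 TPM in Soft-TW (log2 -0.81 ± 0.019, adjusted p 5.56e-63 by edgeR). Srxn1, which repairs peroxiredoxins, fell by 0.69 ± 0.02, and Nqo1, a quinone reductase, by 0.49 ± 0.021, without overlap between the groups. Pgd and G6pdx, the NADPH-making dehydrogenases of the pentose phosphate pathway, fell by 0.68 ± 0.025 and 0.49 ± 0.023, while Tkt of its non-oxidative branch rose by 0.18 ± 0.022 (2 of 7 genes of the pathway rose and 3 fell). Of 12 iron genes, 7 fell and 3 rose, with the ferritin heavy chain gene Fth1 lower by 0.20 ± 0.018 and Ncoa4, which carries ferritin to the lysosome, by 0.29 ± 0.028.

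Of 18 cytosolic heat shock chaperone genes, 15 fell and 0 rose (median -0.32, beside -0.39 under mito and -0.27 with the matrix alone). Hspa1b had 28.56, 29.97 and 29.47 TPM in Stiff-TW, against 66.88, 68.19 and 70.32 TPM in Soft-TW. Hsph1, a nucleotide exchange factor of Hsp70, fell by 0.89 ± 0.028, Dnaja1, an Hsp70 co-chaperone, by 0.59 ± 0.024, and Hsp90aa1, the inducible Hsp90, by 0.54 ± 0.018. Hsf1, the regulator of this family, binds repeats of GAA in alternating orientation. The promoters of the 3 of these 4 genes with an entry are printed on the same terms as above, with capitals marking GAANNTTC or TTCNNGAA, which overlap one another where a run is longer.
Hspa1b, chr17:34959189-34959488, minus strand: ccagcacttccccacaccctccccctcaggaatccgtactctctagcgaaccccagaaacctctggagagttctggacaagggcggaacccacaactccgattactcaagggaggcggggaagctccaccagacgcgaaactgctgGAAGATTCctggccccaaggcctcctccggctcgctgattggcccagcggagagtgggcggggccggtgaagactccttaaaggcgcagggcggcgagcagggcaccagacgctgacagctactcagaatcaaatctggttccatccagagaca
Hsph1, chr5:149636287-149636586, minus strand: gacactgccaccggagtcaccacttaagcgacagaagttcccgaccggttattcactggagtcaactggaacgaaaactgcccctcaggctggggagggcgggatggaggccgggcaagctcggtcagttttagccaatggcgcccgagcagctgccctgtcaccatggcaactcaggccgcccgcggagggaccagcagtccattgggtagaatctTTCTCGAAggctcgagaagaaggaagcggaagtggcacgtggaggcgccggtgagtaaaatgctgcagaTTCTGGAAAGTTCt
Dnaja1, chr4:40722218-40722517, plus strand: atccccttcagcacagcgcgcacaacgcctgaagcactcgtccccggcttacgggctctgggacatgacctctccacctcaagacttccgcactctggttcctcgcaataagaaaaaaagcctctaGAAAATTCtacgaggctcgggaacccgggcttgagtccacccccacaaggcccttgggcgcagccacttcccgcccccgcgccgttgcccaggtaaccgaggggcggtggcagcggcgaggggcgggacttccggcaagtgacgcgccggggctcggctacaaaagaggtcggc
Such a motif was in 7 of 13 promoter windows of the list (53.8%) and in 11.5% of all. Of 34 constitutive proteasome subunit genes, 32 fell and 0 rose, with a median of -0.18 and none at least 1.5-fold, Psmb3 of the core particle by 0.51 ± 0.03 and Psmd6 of the cap by 0.50 ± 0.035. Under mito 33 of these genes fell and 0 rose (median -0.26), and with the matrix alone 16 fell and 4 rose (-0.07). Of 45 lysosomal genes, 31 fell and 5 rose (median -0.25, beside -0.17 under mito and -0.09 with the matrix alone). The cathepsin L gene Ctsl had 4683.89, 4710.13 and 4697.01 TPM in Stiff-TW, against 6030.44, 5942.68 and 5983.71 TPM in Soft-TW (log2 -0.33 ± 0.017), and Atp6v1c1, of the proton pump, fell by 0.57 ± 0.028. Sqstm1, the autophagy receptor p62, fell by 0.41 ± 0.019, although it was higher in Stiff than in Soft by 0.34.

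Matrix genes were higher in Stiff-TW. Of 45 genes of collagens, laminins and matrix glycoproteins, 32 rose and 2 fell, 12 and 1 of them at least 1.5-fold (median 0.39, beside 0.50 under mito and 0.07 with the matrix alone). Col1a2, a chain of type I collagen (gene 12843, chr6:4505618-4541543), had 58.49, 60.3 and 60.34 TPM in Stiff-TW, against 28.03, 27.92 and 28.49 TPM in Soft-TW, a log2 fold change of 1.10 ± 0.03. Fn1, which encodes fibronectin, rose by 0.62 ± 0.02, less than in Stiff over Soft (0.99), and Thbs2, a thrombospondin, by 0.64 ± 0.021, more than there (0.05). Of 14 matrix metalloproteinase and Timp genes, 9 rose and 2 fell, the inhibitor gene Timp3 by 0.80 ± 0.025 and the gelatinase genes Mmp9 and Mmp2 by 0.83 ± 0.06 and 0.44 ± 0.043. Of 7 fibroblast markers tested, 6 rose and 0 fell. Of 16 TGF-beta and BMP outputs, 4 rose and 9 fell: Tgfbi, a secreted adhesion protein, rose by 0.89 ± 0.039 and Ltbp1, which holds latent TGF-beta in the matrix, by 0.73 ± 0.026, while the BMP targets Id1 and Id3 fell by 0.43 ± 0.033 and 0.39 ± 0.03.

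The collagen receptor gene Ddr2 (gene 18214, chr1:169972307-170110836) had 45.98, 47.78 and 46.8 TPM in Stiff-TW, against 29.7, 29.73 and 30.02 TPM in Soft-TW. It rose by 0.66 ± 0.026 (adjusted p 1.07e-43 by edgeR), and by less than under mito (1.35) or with the matrix alone (1.02), both differences being called, with adjusted p-values of 2.83e-32 and 2.07e-15 by edgeR. Ddr1, its paralog, changed by -0.05 ± 0.042 and was not called (adjusted p = 0.316). The focal adhesion kinase gene Ptk2 averaged 62.5 ± 1.83 TPM in Stiff-TW and 63.5 ± 1.65 TPM in Soft-TW, and its change of -0.013 ± 0.027 was not called (adjusted p = 0.716). Rhoa averaged 446 ± 0.598 TPM in Stiff-TW and 442 ± 2.97 TPM in Soft-TW, and Rac1 349 ± 3.68 and 344 ± 3.86 TPM. Their changes of 0.035 ± 0.02 and 0.045 ± 0.021 were not called (adjusted p = 0.138 and 0.0604 by edgeR). Tiam1, an exchange factor for Rac, had 2, 8 and 4 counts in Stiff-TW and 6, 9 and 7 counts in Soft-TW, and no difference was detectable at this depth (adjusted p = 0.307). It had 26, 18 and 22 counts in Stiff+mito and 1, 4 and 4 in Soft+mito, and 21, 27 and 23 counts in Stiff and 5, 7 and 6 in Soft, and the difference of the matrix contrasts was called against both (adjusted p 1.17e-05 against mito and 0.00029 against the matrix alone, by edgeR).

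Integrin and Yap lists were more often higher than lower. Of 25 integrins and focal adhesion adaptors, 10 rose and 2 fell, with the laminin receptor subunits Itgb4 and Itga7 higher by 0.85 ± 0.044 and 0.73 ± 0.076. Of 22 genes of Yap, Taz and their targets, 13 rose and 2 fell, and of 25 Srf targets and contractile genes 12 rose and 5 fell. Ccn1, a matricellular Yap target, had 203.67, 201.54 and 200.86 TPM in Stiff-TW, against 112.77, 110.58 and 109.86 TPM in Soft-TW (log2 0.88 ± 0.027). Of 34 genes of clathrin, caveolae and macropinocytosis, 13 rose and 10 fell, and of 13 mesenchymal transition genes 6 rose and 4 fell. Among all genes tested, 27.6% were higher and 26.7% lower. The sign of both lists' medians turned under another scaling. Vim rose by 0.53 ± 0.019 in Stiff-TW while it fell by 0.53 in Stiff relative to Soft, and Cav1, the caveolin of caveolae, rose by 0.27 ± 0.02, beside 0.0015 with the matrix alone.

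Of 25 immediate early genes tested, Fosb and Fos among them, 15 rose and 6 fell in Stiff-TW, 8 and 1 of them at least 1.5-fold (median 0.13). The difference from the matrix alone was positive and called for 15 and negative for 1. Under mito the list moved much as under TW: 15 rose and 7 fell, 9 and 2 of them at least 1.5-fold (median 0.26). The difference from mito was positive and called for 10 and negative for 4. Jun, another AP-1 subunit, had 107.45, 110.57 and 111.49 TPM in Stiff-TW, against 65.16, 64.94 and 66.55 TPM in Soft-TW (log2 0.76 ± 0.029), where Stiff and Soft averaged 41.9 ± 0.651 and 44.5 ± 1.29 TPM. The phosphatase genes Dusp1 and Dusp6, which switch MAP kinases off, rose by 0.96 ± 0.035 and 0.63 ± 0.028, beside 0.13 and -0.18 with the matrix alone. Dusp4 and the growth factor gene Ereg fell by 0.49 ± 0.04 and 0.49 ± 0.026, and of 22 MAP kinase feedback genes in all 8 rose and 8 fell. The AP-1 motif TGANTCA was in 0 of 19 promoter windows of the immediate early list and in 5.24% of all.

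Interferon and antigen presentation genes were higher in Stiff-TW. Of 51 interferon-stimulated genes, 37 rose and 3 fell, 12 and 1 of them at least 1.5-fold (median 0.37, beside 0.34 under mito and 0.27 with the matrix alone). Dhx58, an RNA sensor of the RIG-I family, had 15.63, 14.74 and 14.56 TPM in Stiff-TW, against 7.75, 7.33 and 7.62 TPM in Soft-TW (log2 1.00 ± 0.085), and Oas3, an antiviral 2′-5′ oligoadenylate synthetase, rose by 0.70 ± 0.075 while it fell by 0.68 in Stiff relative to Soft. TTTC followed, after 2 bases of any kind, by TTTC, a form of the interferon response element, was in 20 of 40 promoter windows of the list and in 3.12% of all. Of 18 genes of MHC class I presentation, 17 rose and 0 fell (median 0.40, beside 0.50 under mito and 0.43 with the matrix alone), among them H2-K1 (0.38 ± 0.019), H2-Q4 (0.62 ± 0.028) and the immunoproteasome gene Psmb8 (0.71 ± 0.046); reads can be shared among the near-identical H2 genes. Of 31 NF-kB targets, chemokines and cytokines, 18 rose and 5 fell, with Il1rl1, the interleukin 33 receptor, higher by 0.64 ± 0.023 and Ptgs2, the inducible cyclooxygenase, lower by 0.49 ± 0.02, beside 0.94 and 0.11 with the matrix alone. Of 15 genes of the interleukin 6 family and Stat3, 8 rose and 1 fell.

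Sugar and oxygen genes were more often lower than higher, where 26.7% of all genes tested were lower and 27.6% higher. Of 22 glycolysis genes, 7 rose and 11 fell, and of 23 further hypoxia targets 3 rose and 16 fell (median -0.19, equal to that under mito and beside -0.30 with the matrix alone). Slc2a1, the glucose transporter Glut1, had 272.47, 264.39 and 268.71 TPM in Stiff-TW, against 371.89, 370.7 and 368.9 TPM in Soft-TW (log2 -0.44 ± 0.021), where the matrix alone gave 0.01. Ldha, lactate dehydrogenase, and Eno1, enolase, fell by 0.25 ± 0.018 and 0.26 ± 0.019, less than in Stiff relative to Soft (0.44 and 0.70), both differences being called. The angiogenic factor genes Vegfa and Pgf were lower in Stiff-TW, by 0.19 ± 0.021 and 0.73 ± 0.077, but higher in Stiff than in Soft, by 0.33 and 0.73. The value of Pgf there rests on 19, 13 and 16 counts in Stiff and 11, 10 and 9 counts in Soft. The hypoxia motif ACGTG was in 10 of 19 promoter windows of the hypoxia list (52.6%) and in 25.7% of all.

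Small families showed no common direction in most cases, where 27.6% of all genes tested rose and 26.7% fell. Of 26 Hox genes, 5 rose and 3 fell, but leaving out any of the 6 libraries left 1 to 3 that rose. Of 9 carbonic anhydrase genes 2 rose and 3 fell. Of 14 angiogenic factors and receptors 7 rose and 4 fell, and of 4 Gadd45 family genes 1 rose and 1 fell. Of 7 cornified envelope genes tested, 1 fell. Of 3 proliferin genes, 2 fell, and the abundant Prl2c2 averaged 4010 ± 26.8 TPM in Stiff-TW and 6820 ± 146 TPM in Soft-TW, a log2 fold change of -0.73 ± 0.018 beside -1.31 with the matrix alone, again with close paralogs.

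The matrix difference was then set against that in the other conditions, which share no library with it. Between Stiff-TW and Soft-TW 6650 genes were called (54.3%), between Stiff and Soft 6588 (53.8%), and 4314 in both, which were 64.9% and 65.5% of the lists. Of these, 3566 changed in the same direction and 748 in opposite directions. The difference was called for all 748, which calls of opposite sign make nearly certain. Against Stiff+mito and Soft+mito, with 7779 genes (63.5%), 5168 were shared (77.7% and 66.4%), 4766 in the same direction and 402 opposite. Across the 12245 genes, which are not independent, the log2 fold changes correlated with r = 0.57 between TW and mito and r = 0.44 between TW and the matrix alone. In tests of the difference itself, the matrix contrast under TW differed from that of the matrix alone in 4421 genes (36.1%) and from that under mito in 3830 genes (31.3%). Differences of at least 1.5-fold were positive in 2.32% and negative in 2.21% of genes against the matrix alone, and in 1.37% and 2.44% against mito.

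The genes of largest matrix difference in the other conditions were called under TW at a share near the 54.3% of all genes. Having been chosen for large folds elsewhere, they would tend to show smaller folds under TW by the choice alone. Of the 320 genes that changed at least 2-fold between Stiff and Soft (1.4% of tested genes higher and 1.21% lower), 142 changed in the same direction in TW, 67 of them at least 2-fold, 11 changed in the opposite direction and 167 were not called, with the difference called for 150. Of 546 such genes of the mito condition (3.02% higher and 1.44% lower), 304 changed in the same direction in TW, 117 at least 2-fold, 5 opposite and 237 were not called. Tenm4, a teneurin of cell contacts in neural tissue (gene 23966, chr7:96171244-96911093), had 1.77, 1.5 and 1.69 TPM in Stiff-TW, against 2.03, 1.78 and 1.98 TPM in Soft-TW. Its change of -0.19 ± 0.077 (adjusted p = 0.0319 by edgeR) was no longer called without Stiff-TW replicate 2 (adjusted p = 0.168), without Soft-TW replicate 1 (0.104) or without Soft-TW replicate 3 (0.101). It stood at 7.54 ± 0.206 TPM in Stiff+mito and 0.647 ± 0.0611 TPM in Soft+mito, and at 10.7 ± 0.172 TPM in Stiff and 1.41 ± 0.188 TPM in Soft. Cdsn, which encodes the corneodesmosome protein corneodesmosin, had 41.54, 40.36 and 41.2 TPM in Stiff-TW, against 40.7, 38.06 and 41.58 TPM in Soft-TW, groups that overlapped, and its change was not called (adjusted p = 0.293 by edgeR). It averaged 101 ± 3.8 TPM in Stiff and 24.5 ± 0.771 TPM in Soft.

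A smaller matrix difference under TW was also seen in Aldh1l2, a mitochondrial enzyme of folate metabolism, with 59.7 ± 0.466 TPM in Stiff-TW and 52.1 ± 0.929 TPM in Soft-TW, but 106 ± 0.578 TPM in Stiff and 35.9 ± 0.472 TPM in Soft. Under TW the level on the stiff matrix was lower and the level on the soft matrix higher than with the matrix alone. Car6, a secreted carbonic anhydrase, Acox2, a peroxisomal oxidase of branched chains, Angptl6, an angiopoietin-like factor, and Cth, which makes cysteine, had log2 fold changes of -0.36, -0.057, 0.13 and 0.64 under TW, beside 2.32, 2.33, 1.60 and 1.71 with the matrix alone. Among genes lower on the stiff matrix elsewhere, Sprr1a, a cornified envelope precursor, averaged 102 ± 2.77 TPM in Stiff-TW and 112 ± 2.42 TPM in Soft-TW (not called, adjusted p = 0.105), but 17.1 ± 1.06 TPM in Stiff and 76.0 ± 2.7 TPM in Soft. Mmp10, a stromelysin, fell by 0.61 ± 0.058 under TW and by 1.97 with the matrix alone, Gadd45b, a stress gene, by 0.49 ± 0.065 and 1.51, and Cdh17, a cadherin, by 0.45 ± 0.11 and 1.89. Sox2, a stem cell transcription factor, changed by -0.053 ± 0.057 (adjusted p = 0.445), beside -1.21. Ccno, an atypical cyclin, rose by 0.43 ± 0.1 where it fell by 0.87 in Stiff.

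**Figure D4:**
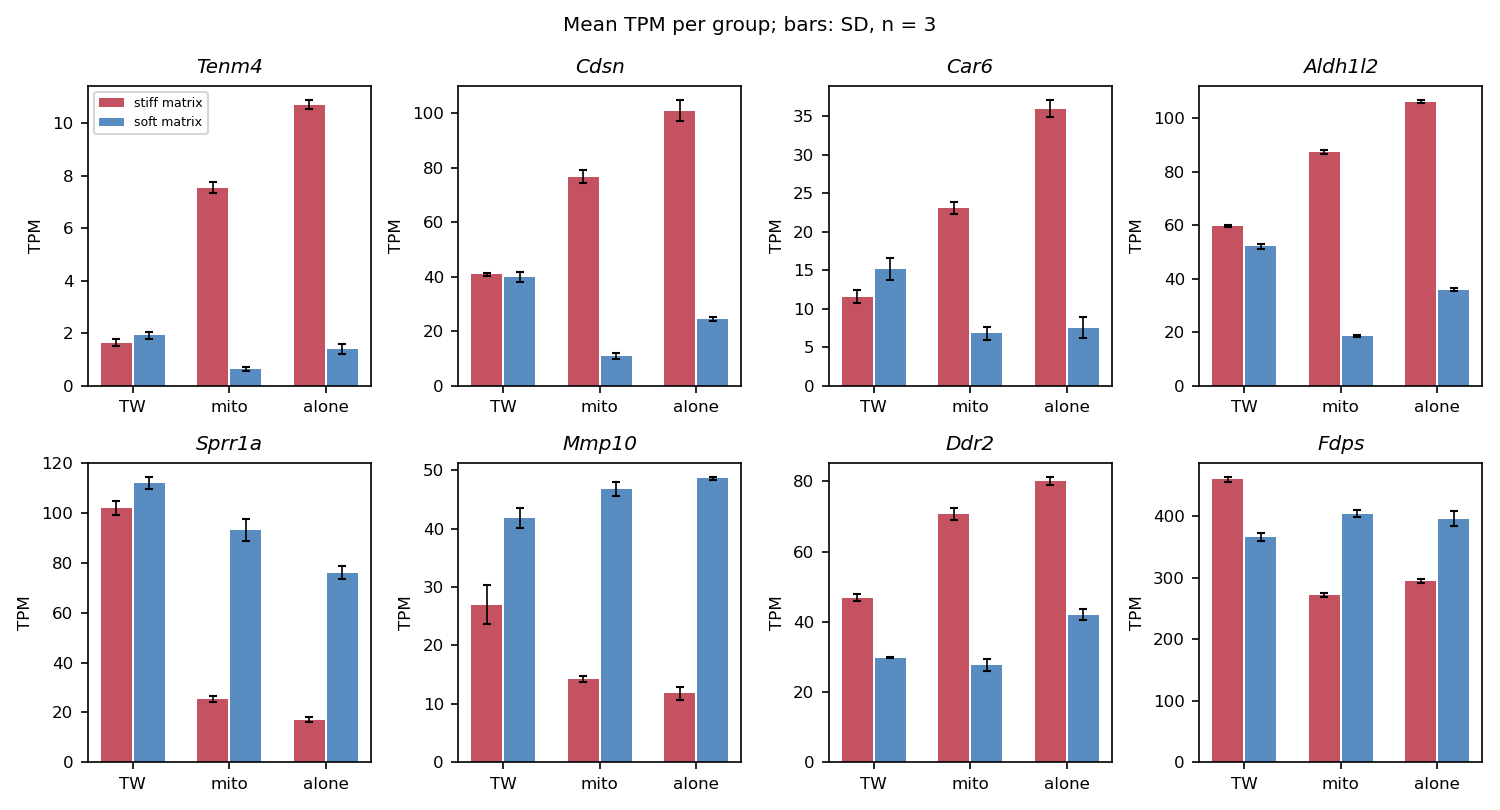
Mean TPM (bars from 0) with SD of 3 libraries in each of the 6 groups, the stiff matrix in red and the soft matrix in blue, for TW, mito and the matrix alone. In the TW pair, Tenm4, Cdsn and Aldh1l2 have bars of nearly equal height (1.65 and 1.93, 41.0 and 40.1, 59.7 and 52.1 TPM), whereas the other pairs differ several-fold, and Fdps is higher in Stiff-TW (460 TPM) than in Soft-TW (366 TPM) but lower in Stiff (294 TPM) than in Soft (396 TPM).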

How the data were processed

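RNA was sequenced from 18 libraries in 6 groups of 3. The authors deposited a table of estimated counts and of TPM per gene, which per the file headers also held 44 columns of averages, not used here. The build was mm10, per the submitters' processing notes; the aligner, counting tool and gene models are named in no source used here. Of the deposited estimated counts 10.9% were not whole (tolerance 0.001), and all were rounded. Deposited TPM served for levels only. Groups were taken from the labels. Genes passing edgeR's filterByExpr were fitted in 1 model of all 18 libraries with TMM scaling and the robust quasi-likelihood test (edgeR 4.0.16, R 4.3.3), giving the matrix contrast in each condition and the differences between contrasts, with Benjamini-Hochberg adjustment over 12245 genes at 0.05. Standard errors are the log2 fold change over the square root of F. Alternatives were DESeq2 1.42.0, its size factors, library totals, limma 3.58.1 on log2(TPM + 1) and log2(TPM + 0.1), other filters, models of fewer libraries, a replicate block and each library left out.

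The text names, among genes with a mean of at least 5 CPM and no overlap between groups, the 16 that rose most and the 16 that fell most, up to 4 genes of smallest adjusted p per list, the 6 largest differences each way between contrasts, and Ddr1, Ddr2, Ptk2, Tiam1, Rhoa and Rac1. Predicted genes were passed over. Some genes that the rule names, and 1 list, are not reported here. S100a4, Adgre1, Ptprc and the other marker genes were read as a check of the cells. The gene lists and the members were chosen with earlier results of these data known, and the motif of the heat shock list was added after its values were seen. Of the gene IDs, 18257 matched RefSeq. The fits were tested on simulated data.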

Additional observations from a re-analysis of the deposited data

Results flagged for a closer look

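The matrix contrast under TW differed from that in another condition, by a test of the difference itself at an adjusted p under 0.05 (edgeR), in 4421 genes against the matrix alone and in 3830 genes against mito. The genes that follow come from the named ones and had such a difference of at least 1 on the log2 scale, given as the TW contrast minus the other contrast, with a mean above 3 counts in each of the 4 groups it uses.

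Against the matrix alone, the difference was positive for Fosb (2.24), Sprr1a (2.03), Cdh17 (1.44), Oas3 (1.38), Mmp10 (1.36), Ccno (1.3), Sox2 (1.16), Unc13c (1.1), the histone gene H2ac18 (1.07), Vim (1.06) and Gadd45b (1.02). It was negative for Tenm4 (-3.2), Car6 (-2.68), Tiam1 (-2.61), Acox2 (-2.39), Cdsn (-2.07), Gsta1 (-1.67), Lyz2 (-1.59), Angptl6 (-1.46), Pgf (-1.46), Aldh1l2 (-1.4), Hoxd3 (-1.12) and Cth (-1.07). A positive difference covers unlike cases. Fosb rose more in Stiff-TW than in Stiff, Oas3, Ccno and Vim rose in Stiff-TW and fell in Stiff, and Mmp10 and Cdh17 fell less in Stiff-TW than in Stiff.

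Against mito, the difference was positive for Fosb (1.79), Sprr1a (1.8), Gadd45b (1.8), Fos (1.47), Sox2 (1.26), Ccno (1.25) and Mmp10 (1.11). It was negative for Tenm4 (-3.67), Cdsn (-2.76), Acox2 (-2.45), Car6 (-2.1), Aldh1l2 (-1.96), Angptl6 (-1.86), Cth (-1.63), Pgf (-1.48) and Lyz2 (-1.17). Lyz2 is itself one of the summed macrophage markers, with 13.4 of 76.9 TPM in Stiff-TW and 30.2 of 120 TPM in Soft-TW. The part of the other macrophage markers in its difference was not tested. Prdm1, which fell in Stiff-TW, had 3, 1 and 1 counts in Stiff, at or under the floor of 3 counts, so no size of its difference from the matrix alone is given.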

How the results depend on the processing

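No called change of a named gene reversed its direction under any alternative run; Acox2, not called under TW, ran from -0.24 to 0.08 as libraries were left out, and the medians of the p53, endocytosis, mesenchymal and mitochondrial transfer lists turned sign with the scaling. Stiff-TW against Soft-TW gave 5709 called genes with DESeq2 and 6842 with the 6 libraries alone, beside 6650. With at least 1.5-fold it gave 400 with limma on log2(TPM + 1) and 408 at a mean of at least 5 CPM, beside 772. The difference from the matrix alone gave 332 such genes at 5 CPM, beside 555, and that from mito gave 276 with limma and 267 at 5 CPM, beside 467; for 5 CPM fewer genes were tested, and for limma the cause was not tested. With limma on log2(TPM + 1), 62.1% of the called differences from the matrix alone were positive, beside 45.3%. Leaving out a library gave 6115 to 6189 called genes for TW (758 to 782 at 1.5-fold), 4084 to 4266 for the difference from the matrix alone (537 to 568) and 3484 to 3757 for that from mito (444 to 476). Over the named genes, 12 calls were lost and 6 gained across 3962 values, and 25 list counts of 705 moved by more than 1.5 times, 11 of them for Hox genes that rose. Tenm4 was also not called with limma (adjusted p 0.113 and 0.0969). The difference of Cdh17 from the matrix alone was 0.28 and not called with limma on log2(TPM + 1) (adjusted p 0.107), beside 1.44. Its levels there were low, at 0.24 ± 0.06 TPM in Stiff and 0.993 ± 0.239 TPM in Soft. Genes near the floor of 3 counts, Tiam1 among them, allow no finer statement.

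Replicate numbers were shared between groups. Between Stiff-TW and Soft-TW, same-numbered libraries did not deviate together from their group means (r = -0.0222, 0.0512 and -0.108). The other groups were not compared in this way, and the deviations lay near counting error. What same-numbered libraries share beyond the number is therefore not known. With the replicate block, 6729 genes were called for TW (770 at 1.5-fold), 4502 for the difference from the matrix alone (555) and 3929 for that from mito (463).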

Other observations

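Markers of other cell types stood beside the results as follows. Neutrophil markers summed to 36.8 ± 2.44 TPM in Stiff-TW and 51.6 ± 13.0 TPM in Soft-TW (SD, n = 3 each), nearly all of it S100a8 (36.5 ± 2.4 and 51.4 ± 12.8 TPM). Of 16 epithelial markers, 2 reached a mean of 10 TPM, and the list summed to 676 ± 6.56 TPM in Stiff-TW and 776 ± 9.62 TPM in Soft-TW. Endothelial markers summed to 0.343 TPM in Stiff-TW and 0.33 TPM in Soft-TW, and lymphocyte markers to 0.387 and 0.527 TPM. The chemokine gene Ccl3 had 1, 1.58 and 0.99 TPM in Stiff-TW, against 7.42, 8.29 and 8.2 TPM in Soft-TW, groups that did not overlap. Csf1r, the receptor of macrophage colony-stimulating factor, had 0.27, 0.45 and 0.21 TPM in Stiff-TW, against 0.71, 1.1 and 0.68 TPM in Soft-TW.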
